A study of Mus musculus with 12 samples.

Results

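The deposited p53 and H3K4me3 peaks of mouse back skin were examined at 39 genes of DNA damage signalling and repair. A peak belonged to a gene when its midpoint lay inside the gene or within 5 kb of either gene end. By this rule 18 of the 9474 peaks in the 3 lists belonged to the genes, and 18 of the 39 genes had a peak. All 39 genes were found in the RefSeq gene table, H2afx through an older name. Per the labels' protocols, the skin came from mice of 8 to 10 weeks and the radiation dose was 5 Gy. The labels give 12 chromatin immunoprecipitation samples in 6 groups of 2. In K17KO mice p53 was profiled at 2 times, T0 and 6 h, and in wild-type (WT) mice both p53 and H3K4me3 were profiled at these times. K17KO is written as in the labels, which do not spell it out. The radiation treatment is the label of every group, T0 included, and no source used here says if a group's samples are different animals.

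Cells sense DNA breaks with the kinases Atm and Atr, which mark the chromatin around the break and signal to p53. Breaks are then closed by end joining, which ligates the ends directly, or by homologous repair, which copies the sister chromatid, while excision repair removes damaged bases and mismatches. p53 is a transcription factor that damage activates, and trimethylation of lysine 4 of histone H3 (H3K4me3) marks the promoters of active genes.

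The K17KO p53 list held 1101 peaks, the p53 list that names no genotype 2909, and the H3K4me3 list 5464. The list without a genotype was taken as WT, and each statement on WT p53 rests on this. Back skin is a mixture of cell types, which the lists do not separate. No list names its libraries, times or control, so T0 could not be set against 6 h and no value has a replicate error. The depth of the libraries is unknown, and intervals below cover counting error only. Fold is the authors' deposited enrichment of each peak, a linear ratio of the fragments plus 1 to the caller's background plus 1, and −log10 q comes from the authors' deposited table likewise. Median fragments and median background were 11 and 1.39 in the K17KO p53 list, 7 and 0.992 in the WT p53 list, and 148 and 90.7 in the H3K4me3 list. Of 6 known p53 target genes, Bax had a K17KO p53 peak (4.66-fold). A WT p53 peak was found at Bax (6.70-fold), Cdkn1a (6.57-fold), Bbc3 (6.03-fold), Ccng1 (4.40-fold) and Trp53inp1 (4.02-fold), and Mdm2 had neither. The shares of all protein-coding genes were 3.79% with a K17KO p53 peak and 6.74% with a WT p53 peak. The WT list is longer and extends to larger q-values (0.420 against 0.0919), so these counts do not compare the genotypes. As markers of skin, 2 of 8 keratinocyte genes (Krt1 and Krt10) had an H3K4me3 peak, and Krt5, Krt14, Trp63, Perp, Dsp and Sfn had none. Of other skin cell types, 1 of 3 adipocyte, 1 of 4 melanocyte, 1 of 4 endothelial and 1 of 6 dermal fibroblast genes had a peak in the same list, and 0 of 4 skeletal muscle, 0 of 5 immune and 0 of 5 other-organ genes did. Over all protein-coding genes the share with an H3K4me3 peak was 23.9%, near the 25.0% of the keratinocyte genes. These few markers therefore do not identify a cell type.

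The promoters of 3 members, chosen after their values were seen, are shown from 250 bases before the annotated start to 30 after it, 5′ to 3′ (RefSeq, GRCm38.p6, the assembly behind mm10). Xrcc1 is shown because its H3K4me3 peak covered 259 of the 280 bases, Brca1 because its H3K4me3 peak covered 73 of them and reached into a neighbouring gene, and Bard1 because the strongest p53 peak at a member began 31 bases beyond the printed stretch. The Xrcc1 stretch is chr7:24546449-24546728 (plus strand), the Brca1 stretch chr11:101551926-101552205 (minus strand) and the Bard1 stretch chr1:71102943-71103222 (minus strand). Capitals mark a CCAAT box on either strand in Xrcc1 and Brca1 and the letters TTTGAA in Bard1.
Xrcc1: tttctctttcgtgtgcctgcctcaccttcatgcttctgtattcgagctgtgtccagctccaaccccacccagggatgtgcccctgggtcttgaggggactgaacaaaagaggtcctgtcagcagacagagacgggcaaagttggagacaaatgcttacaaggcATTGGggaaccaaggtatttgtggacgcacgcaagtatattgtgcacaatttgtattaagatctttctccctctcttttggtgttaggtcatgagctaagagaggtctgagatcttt
Brca1: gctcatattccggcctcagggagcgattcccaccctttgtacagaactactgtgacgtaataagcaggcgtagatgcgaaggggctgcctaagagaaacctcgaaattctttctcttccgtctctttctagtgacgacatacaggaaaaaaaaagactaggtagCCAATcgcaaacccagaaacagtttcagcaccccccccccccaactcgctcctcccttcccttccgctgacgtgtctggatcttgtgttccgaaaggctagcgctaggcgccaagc
Bard1: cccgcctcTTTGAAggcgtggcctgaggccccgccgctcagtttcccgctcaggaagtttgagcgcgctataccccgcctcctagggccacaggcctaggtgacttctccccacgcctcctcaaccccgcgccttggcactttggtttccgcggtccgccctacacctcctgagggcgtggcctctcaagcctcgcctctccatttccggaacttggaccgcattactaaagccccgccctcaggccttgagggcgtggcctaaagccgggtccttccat
The GC content was 48.6% in the Xrcc1 stretch, 52.5% in the Brca1 stretch and 64.6% in the Bard1 stretch.

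Few repair genes had a p53 peak in either genotype. A K17KO p53 peak was found at 2 of 39 genes (5.13%, exact 95% interval 0.627 to 17.3), Bard1 and Fancd2, against 3.79% of all 21883 protein-coding genes. A WT p53 peak was found at 2 of 39 genes (5.13%, the same interval), Mre11a and Xrcc5, against 6.74% of all protein-coding genes. Both shares were near their background, and the intervals are too wide to tell them from it. No member had a p53 peak in both genotypes, against 0.503% of all protein-coding genes, and none had a peak in more than 1 of the 3 lists, against 3.57%. Counts of 0 of 39 do not set the members apart at these backgrounds. The K17KO peaks lay in homologous repair genes and the WT peaks in a break signalling gene and an end joining gene. No excision repair gene had a p53 peak. With 2 genes in each list, this split does not set any role apart at these backgrounds. The members are longer than most genes, with a median of 29.8 kb against 17.2 kb for all protein-coding genes, and the 4 genes with a p53 peak ran from 52.5 to 87.5 kb. Per length, members and their flanks held 0.863 K17KO p53 peaks per Mb against 0.609 for all protein-coding genes, and 0.863 WT p53 peaks per Mb against 1.27.

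Bard1, the partner that Brca1 needs for its ubiquitin ligase activity, had the strongest of these peaks. Its K17KO p53 peak spanned chromosome 1 from 71102324 to 71102911 (mm10), with the midpoint 355 bp downstream of the annotated start. It was 6.65-fold enriched, with 12 fragments (95% interval 6.20 to 21.0) over a background of 0.956 and a −log10 q of 5.05. By fold it ranked 29 of 1101 in its list, and by p 65. The same fold and p were deposited for 7 K17KO p53 peaks, this one included. No WT p53 peak lay within 647 kb of Bard1 and no H3K4me3 peak within 410 kb. Bard1 was 1 of 33 members with an annotated start to have a K17KO p53 peak within 1 kb of it (3.03%), against 1.24% of protein-coding genes. No member had a WT p53 peak so close, against 0.692% of protein-coding genes. The lists differ in this as a whole, but they were not cut at the same q-value. The largest q-value on the main chromosomes was 0.0919 in the K17KO p53 list and 0.420 in the WT p53 list. Where a distance to a start could be taken, 20.8% of 1050 K17KO p53 peaks and 5.35% of 2805 WT p53 peaks lay within 1 kb. Those K17KO p53 peaks lay at a median of 303.5 bp from the start, and 76.1% of them downstream.

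The other p53 peaks at members rested on 6 or 7 fragments each. Fancd2, the Fanconi anaemia protein that is ubiquitinated at crosslinks, had a K17KO p53 peak at chr6:113535192-113535576, within the gene at 3744 bp from its nearer end. It was 4.09-fold enriched with 7 fragments (95% interval 2.81 to 14.4) over 0.956, ranked 791 of 1101 by fold, and had a −log10 q of 1.57. Its fold and p were deposited for 17 K17KO p53 peaks, itself included. Mre11a encodes the nuclease of the complex that binds broken ends. Its WT p53 peak, at chr9:14796978-14797193, was intragenic, 12431 bp downstream of the start. It was 4.20-fold enriched with 7 fragments (95% interval 2.81 to 14.4) over 0.906 and a −log10 q of 1.02, and ranked 997 of 2909 by fold. Another gene of end binding, Xrcc5, encodes a subunit of the Ku heterodimer. Its WT p53 peak, at chr1:72332635-72332850, was also intragenic, 25321 bp downstream of the start. It was 3.51-fold enriched with 6 fragments (95% interval 2.20 to 13.1) over 0.992, ranked 2143 of 2909 by fold, and had a −log10 q of 0.656, which is a q-value of 0.221. The same fold and p as at Mre11a were deposited for 260 WT p53 peaks, and the same as at Xrcc5 for 225, so these values did not set either peak apart. Both WT peaks were 216 bp wide, as were 50.7% of the peaks in that list. None of the 4 p53 peaks overlapped a peak of another list, and few p53 peaks did anywhere, namely 6.62% of K17KO p53 peaks and 1.14% of WT p53 peaks. The nearest H3K4me3 peak to any of them was 134305 bp away, from the Mre11a peak.

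**Figure D1:**
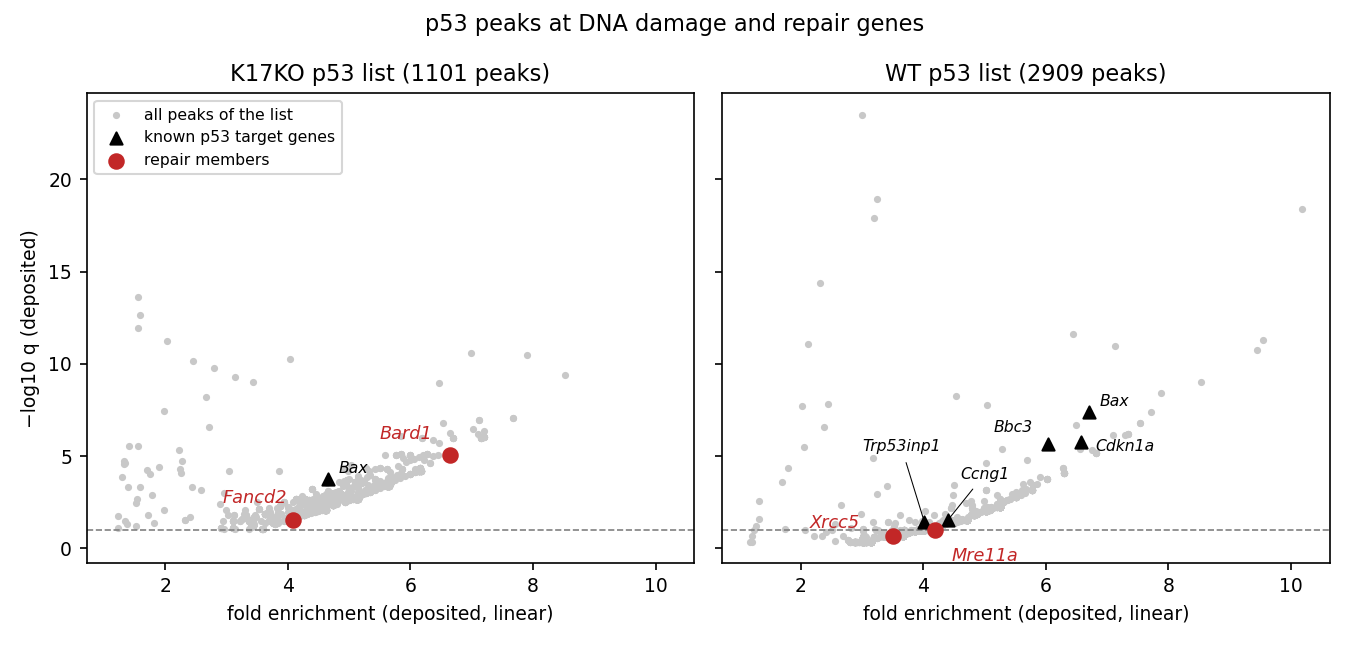
Deposited −log10 q against deposited fold enrichment (both axes linear) for each peak of the K17KO p53 list (left) and the WT p53 list (right), with peaks at repair members as red circles, peaks at known p53 target genes as black triangles and a dashed line at a q-value of 0.1. Bard1 sits at 6.65-fold among the higher K17KO peaks, while Mre11a and Xrcc5 sit near or below the line among the many WT peaks of 6 or 7 fragments.

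H3K4me3 was found at more of these genes. A peak belonged to 14 of 39 members (35.9%, exact 95% interval 21.2 to 52.8), against 23.9% of all protein-coding genes, which lies inside that interval. Among the upper 50% of H3K4me3 peaks by fold, the shares were 7.69% of members and 10.8% of all protein-coding genes, so the order turned. By role the counts were 4 of 12 break signalling genes, 3 of 6 end joining genes, 1 of 8 homologous repair genes and 6 of 13 excision repair genes, with intervals that overlap among all 4 roles. Each of the 14 genes had a lone H3K4me3 peak, whereas 919 of the 5224 protein-coding genes with a peak (17.6%) had more than 1. For comparison, 3 of the 6 known p53 target genes with an H3K4me3 peak had more than 1. The folds at members ran from 1.32 to 2.05 with a median of 1.53, and 11 of 14 lay below the list's median of 1.66. The background at members was high, with a median of 129 fragments against 90.7 in the whole list, and 12 of 14 lay above the list's median. The same held for all H3K4me3 peaks within 1 kb of an annotated start, whose median background was 119.7 fragments and median fold 1.55. No source used here names the control of this list, so a peak may mark a difference from that control and the lack of a peak does not show that the mark was absent.

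Among the break signalling genes, H3K4me3 peaks marked Chek2, Rnf8, Trp53bp1 and the region behind Atr. Chek2, the checkpoint kinase activated by Atm, had a 1.64-fold peak of 179 fragments (95% interval 154 to 207) over 108, inside the neighbouring gene Hscb and 415 bp upstream of the Chek2 start. Rnf8, a ubiquitin ligase that builds on the marked chromatin at breaks, had the most fragments of any member, 255 (95% interval 225 to 288) over 156, at 1.63-fold and 360 bp downstream of its start. Trp53bp1, an adaptor that favours end joining, had a 1.41-fold peak of 193 fragments over 136, at 219 bp downstream of an annotated start inside the gene and 25166 bp from the nearer gene end. The peak counted for Atr, the kinase of stalled replication forks, lay behind the gene at 1.83 kb from its end. It was 286 bp downstream of the start of Xrn1, an RNA exonuclease gene, and is therefore not at the Atr start. The other 8 genes had no H3K4me3 peak. Among them, the nearest peak lay 80.3 kb from Atm, 529 kb from the checkpoint kinase gene Chek1, 14.7 kb from H2afx, whose histone is phosphorylated around breaks, 19.5 kb from Mdc1, which binds that histone, and 30.9 kb from the ubiquitin ligase gene Rnf168. All 3 genes of the complex that binds broken ends lacked an H3K4me3 peak, with the nearest 122 kb from Mre11a, 170 kb from Rad50 and 171 kb from Nbn. At a share of 23.9% over all protein-coding genes, this does not set the 3 genes apart.

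Of the end joining genes, Xrcc4, Xrcc6 and Prkdc had an H3K4me3 peak. Xrcc4, the scaffold of the ligase that seals the ends, had a 1.85-fold peak of 162 fragments (95% interval 138 to 189) over 86.9, located 358 bp downstream of its start. Xrcc6, which encodes the partner of Xrcc5 in the Ku heterodimer, had a 1.37-fold peak of 246 fragments over 179.5. This peak lay 254 bp downstream of the start of Desi1 and 403 bp upstream of an annotated Xrcc6 start. Prkdc, the catalytic kinase that Ku recruits, had a 1.55-fold peak of 166 fragments over 107, inside the neighbouring replication gene Mcm4 and 346 bp beyond the nearer end of Prkdc. The ligase gene Lig4 was 1026 kb from its nearest H3K4me3 peak, Xrcc5 317 kb and Nhej1, a helper of the ligase, 84.0 kb.

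Homologous repair had the fewest members with H3K4me3, 1 of 8 (exact 95% interval 0.316 to 52.7%). The share over all protein-coding genes, 23.9%, lies inside that interval. Of 30 other genes of this role, described below, 15 had a peak. Brca1, a tumour suppressor that promotes resection of broken ends, had the lowest fold of all members at 1.32, with 167 fragments (95% interval 143 to 194) over 126. Its −log10 q of 0.722 was the lowest of the 14, a q-value of 0.190. The peak lay inside Nbr1, an autophagy receptor gene on the other strand, 231 bp downstream of a Nbr1 start and 383 bp upstream of the Brca1 start. The other 7 genes had none. Palb2, which links Brca1 to Brca2, lay just beyond the limit with its nearest peak 5.59 kb away, and the Atr peak at 1.83 kb was the farthest one inside the limit. The nearest peak was 11.7 kb from Fanca, a subunit of the ligase that modifies Fancd2, and 23.8 kb from Brca2, the loader of the recombinase. It was 76.8 kb from the strand exchange gene Rad54l, 139 kb from Fancd2, 358 kb from the strand annealing gene Rad52 and 410 kb from Bard1.

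Excision repair held 6 of the 14 members with H3K4me3. Xrcc1, the scaffold for repair of broken strands after base removal, had the highest fold of any member at 2.05, with 74 fragments (95% interval 58.1 to 92.9) over the lowest background, 35.5. Its peak midpoint lay 97 bp upstream of the Xrcc1 start, inside the neighbouring gene Pinlyp, on the stretch shown above. Ercc2, a helicase of the transcription factor TFIIH that opens damaged DNA, had a 1.85-fold peak of 196 fragments over 106, with the highest −log10 q of the members at 9.95. Ercc3, the second TFIIH helicase gene, had a 1.63-fold peak of 186 fragments over 114 inside the gene, 270 bp from its nearer end. Xpa, which verifies nucleotide damage, had a 1.45-fold peak of 215 fragments over 148, and Msh6, which recognises mismatches, a 1.35-fold peak of 234 fragments over 173. Apex1, which cleaves the backbone at sites without a base, had a 1.37-fold peak of 181 fragments over 132, inside Osgep and 318 bp downstream of the Osgep start. The glycosylase genes Ung and Ogg1, which remove uracil and oxidised guanine, had their nearest peak 7.39 and 19.5 kb away. Parp1, the sensor of strand breaks, was 177 kb from an H3K4me3 peak and 11.0 kb from a K17KO p53 peak. The sliding clamp gene Pcna was 32.5 kb, the nuclease gene Ercc1 25.9 kb, and the ligase genes Lig3 and Lig1 16.5 and 349 kb from an H3K4me3 peak.

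**Figure D2:**
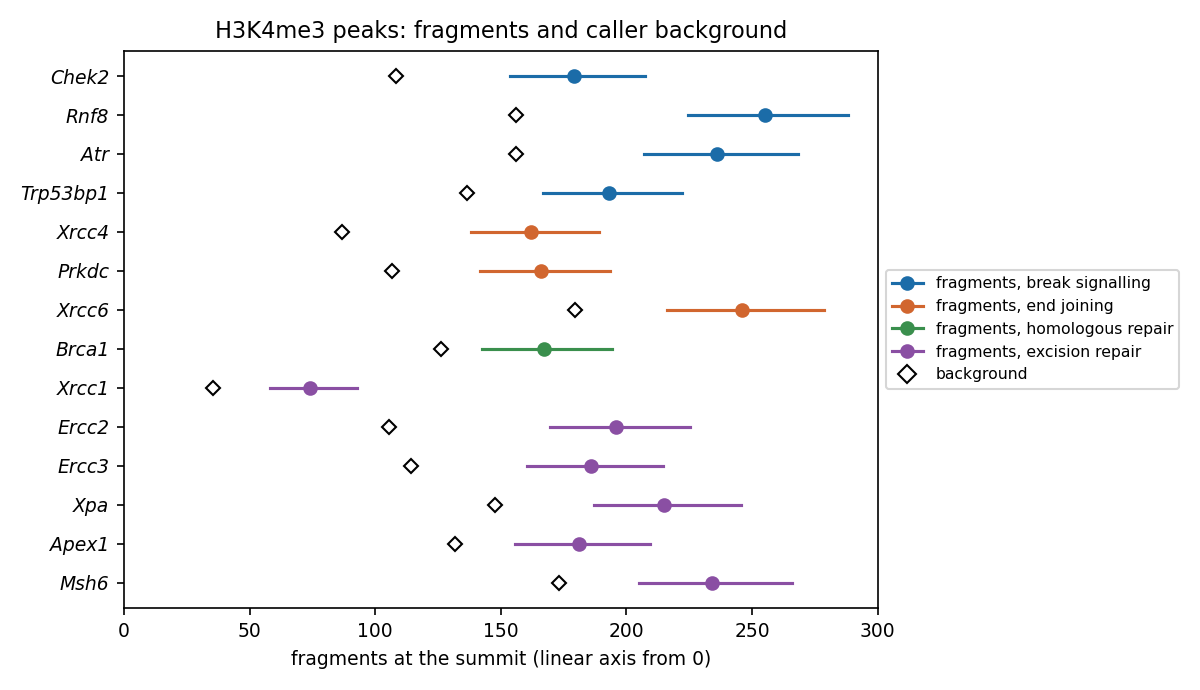
Fragments at the summit of the H3K4me3 peak of each of 14 member genes (circles, coloured by role, with exact 95% Poisson intervals as bars) and the caller's background there (open diamonds), on a linear axis from 0. Xrcc1 stands at 74 fragments over 35.5, and the other 13 genes have 162 to 255 fragments over 86.9 to 179.5.

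The H3K4me3 peaks at members sat beside start sites more than on them. Of the 14 peaks, 12 had an annotated start of the member or of another gene within 1 kb. The table of annotated starts has no entry for Prkdc and Ercc3, whose peaks are not among these. Their peak midpoints lay 346 and 270 bp from the nearer gene end. The midpoint lay on the transcribed side of the nearest start in 10 of the 12. Among all H3K4me3 peaks within 1 kb of a start this share was 83.5% (2600 of 3115), next to 83.3% at the members. The Chek2 peak, upstream of the Chek2 start, lay inside the neighbouring gene Hscb, for which no nearer annotated start was available. In 11 of the 12 the midpoint was 200 to 500 bp from the start, a range chosen after the values were seen, against 68.3% of all H3K4me3 peaks near a start. Xrcc1 was the exception. The median distance was 302 bp for members and 284 bp for all. The peaks were 245 to 521 bp wide, and 0 of 14 overlapped a p53 peak, against 1.68% of all H3K4me3 peaks. Counted by the members' own starts, 11 of 33 members (33.3%) had a midpoint within 1 kb, against 17.3% of 17491 protein-coding genes in the same start table.

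**Figure D3:**
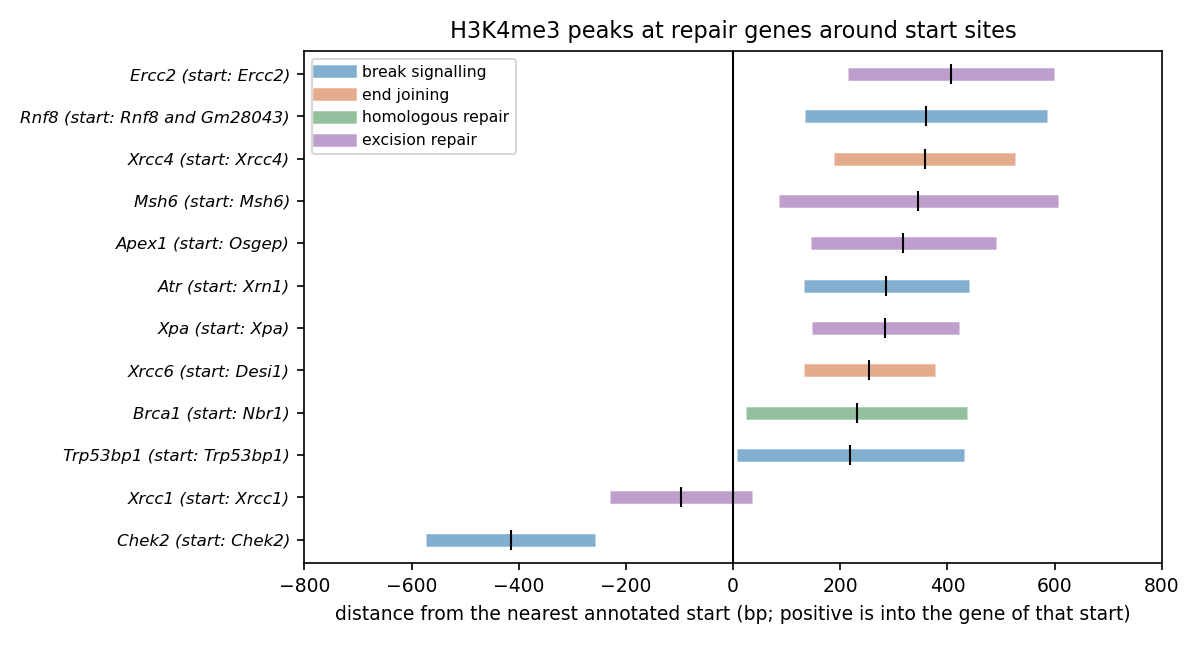
Extent (bars, coloured by role) and midpoint (ticks) of 12 H3K4me3 peaks at member genes, drawn by distance in bp from the nearest annotated start, whose gene is named in brackets. In 10 of them the midpoint lies downstream of that start, Xrcc1 lies across it at 97 bp upstream, and Chek2 lies 415 bp upstream. The Chek2 peak lies inside the neighbouring gene Hscb, for which no nearer annotated start was available.

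Many members share a promoter region with a neighbour. Of the 33 members in the start table, 11 (33.3%) had a protein-coding start on the other strand within 1 kb upstream, against 8.48% of 17491 protein-coding genes. The start table holds 17491 of the 21883 protein-coding genes, so a partner without an entry is not counted. The partners lay 56 bp away for Apex1 (Osgep), 59 bp for Xrcc4 (Tmem167), 149 bp for Xrcc6 (Desi1), 152 bp for Brca1 (Nbr1) and 694 bp for Xrcc1 (Pinlyp). These 5 of the 11 (45.5%) had an H3K4me3 peak within 1 kb of their own start, as did 6 of 22 members without such a partner (27.3%). Over all protein-coding genes the shares were 36.3% with a partner and 15.5% without. Chek2 is among the 6 members without a partner in the start table, although its peak lay inside the neighbouring gene Hscb. Atm (Npat, 376 bp), Mre11a (Ankrd49, 81 bp), Lig4 (Abhd13, 37 bp), Palb2 (Dctn5, 95 bp) and Lig1 (Zswim9, 105 bp) had a partner and no H3K4me3 peak, and the start of Atr, 80 bp from its partner 1700065D16Rik, had none within 1 kb. A peak in such a region cannot be assigned to either gene of the pair.

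The promoter windows of the 33 members, 250 bases before to 50 after each start, were searched on both strands for 5 motifs, none of which is contained in another. The p53 decamer occurred at 1 member, Fanca (3.03%), against 8.54% of 17491 protein-coding genes, and Fanca had no p53 peak within 5 kb. CCAAT, the box bound by NF-Y, occurred at 18 members (54.5%) against 42.3%. GGCGGGA, a core of E2F sites, occurred at 10 (30.3%) against 16.8%, and CCGGAAG, a core of ETS sites, at 8 (24.2%) against 12.9%. TTTGAA, the element of many cell cycle promoters, occurred at 2, Bard1 and Rnf8 (6.06%), against 18.5%. A match of letters describes the window and is not a measured site.

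Other genes of the same pathways were counted by the same rule. Of 93 such genes, 3 had a K17KO p53 peak (3.23%), against 3.79% of all protein-coding genes. A WT p53 peak was counted for 5 (5.38%, against 6.74%) and an H3K4me3 peak for 31 (33.3%, against 23.9%). The K17KO p53 peaks were counted for Ddb1, a damage recognition gene (4.47-fold, inside Vwce), Babam1 (4.37-fold, inside Ankle1) and the polymerase gene Pold1 (3.47-fold). The WT p53 peaks were counted for Rad51d (4.12-fold, inside Fndc8), Uimc1 (4.02-fold), the glycosylase genes Tdg (3.78-fold) and Mbd4 (3.67-fold), and Rad51b (3.51-fold), each with 6 or 7 fragments. Of other homologous repair genes 15 of 30 had an H3K4me3 peak, beside 1 of 8 members of that role (exact 95% interval 0.316 to 52.7%), and the difference was not tested. The highest folds were at Rad51b (3.94-fold), Rbbp8 (2.86-fold), Brip1 (2.14-fold) and Blm (1.79-fold). The Rad51b peak had 14 fragments over 2.80 and the Rbbp8 peak 50 over 16.8, beside 173 over 80.4 at Brip1 and 146 over 81.3 at Blm. Inside their genes, the Rad51b and Rbbp8 peaks lay 137631 and 12506 bp from the nearer end. Break signalling had 7 of 19 further genes with a peak, with Atrip (2.03-fold), Cdc25a (1.82-fold), Babam1 (1.81-fold) and Clspn (1.67-fold) highest. The highest-fold Atrip peak lay inside Shisa5. End joining had 1 of 9, Dclre1c (1.45-fold, inside Suv39h2). Excision repair had 8 of 35, among them Pold1 (2.02-fold, inside Nr1h2), Ercc6 (1.60-fold) and Rad23b (1.57-fold). Of 10 known p53 targets in repair, none had a p53 peak in either genotype. At shares of 3.79% and 6.74% over all protein-coding genes, 0 of 10 does not set these targets apart. An H3K4me3 peak was found at 7 of them (70.0%, against 23.9%), led by Btg2 (2.44-fold), Sesn2 (1.71-fold), Sesn1 (1.64-fold) and Ddb2 (1.58-fold).

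The distance to the nearest peak gives each member a value whether or not it had a peak. The median over the 39 members was 420 kb to a K17KO p53 peak, 158 kb to a WT p53 peak and 19.5 kb to an H3K4me3 peak. Over all protein-coding genes it was 581, 242 and 66.8 kb, so the members' median was the smaller in all 3 lists. Distances were taken from the gene body, and the members are longer, with a median of 29.8 kb against 17.2 kb. The members' distances ran from 0 to 5712 kb, 0 to 2365 kb and 0 to 1026 kb in the same order. Neither these differences nor those by role were tested. By role, homologous repair was closest to K17KO p53 peaks (median 101 kb) and farthest from WT p53 peaks (233 kb). Excision repair was closest to H3K4me3 peaks (7.39 kb) and farthest from K17KO p53 peaks (917 kb). The lists differ in length, so distances were not compared between them. In all, 21 members had no peak in any list, namely 7 of break signalling, 2 of end joining, 5 of homologous repair and 7 of excision repair.

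**Figure D4:**
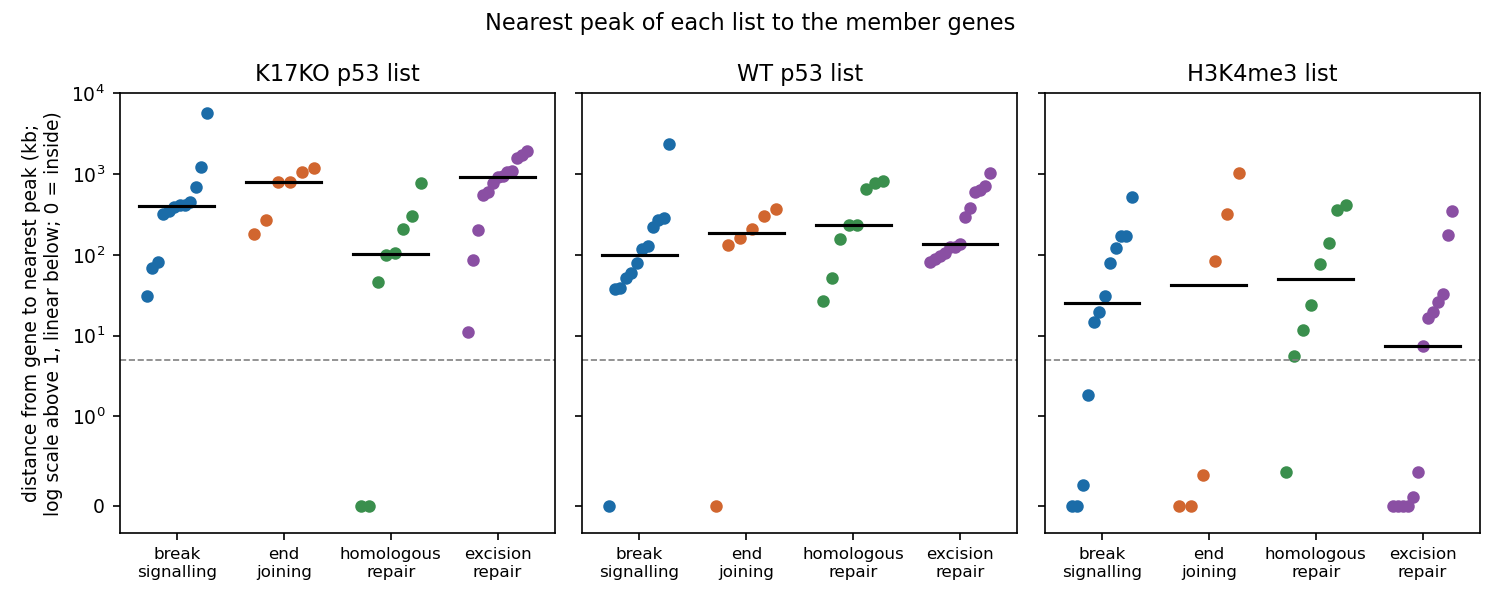
Distance in kb from each of 39 member genes (dots, by role) to the nearest peak midpoint of the K17KO p53, WT p53 and H3K4me3 lists, with the median of each role as a black line and the 5 kb limit dashed. The axis is logarithmic above 1 kb and linear below, and 0 means inside the gene. Both p53 lists have 2 genes below the limit and the H3K4me3 list 14.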

How the data were processed

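The deposited data were 3 peak lists of 10 columns without a header. Bowtie2 2.2.5, SAMtools 1.7, MACS2 2.1.2 and the build mm10 are named in the submitters' processing notes, which give no roles. In the deposited lists, fold is the ratio of fragments plus 1 to background plus 1 at the summit, p-values and q-values are given as −log10, and the deposited score is 10 times the −log10 p without decimals in every peak. They were used only within a list. A whole number of fragments and the background that goes with it were recovered from the deposited fold, with 1 added to each term, and matched the Poisson −log10 p within 0.001 in 100.0% of peaks. Fragment intervals are exact Poisson and shares exact Clopper-Pearson, at 95%. Genes and starts came from RefSeq (GRCm38.p6). Distances use starts for the 33 members with an entry, otherwise the nearer gene end. The recovery and the gene assignment were tested on simulated data. Python 3.11.15, pandas 2.3.3, numpy 2.4.6 and scipy 1.17.1 were used. Members and gene lists were chosen with earlier results of these data known. All members are named, as are up to 4 other pathway genes of highest fold per role and list and 6 p53 targets. An item of the other pathway genes is counted but not reported by name here. No test was made, because a list has no replicates and genes are not replicates. Alternative windows, q-value limits, the upper 50% by fold and overlap rules were tried.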

Additional observations from a re-analysis of the deposited data

How the results depend on the processing

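The H3K4me3 count of 14 members (35.9%, against 23.9% of all protein-coding genes) was 8 with gene bodies alone (20.5% against 18.5%) and 3 in the upper 50% of peaks by fold (7.69% against 10.8%). In the other settings it ran from 11 to 21, with the members' share above that of all genes in each. The K17KO p53 count of 2 was 1 at a q-value of at most 0.01, 1 in the upper 50% by fold and 1 within 1 kb of an annotated start, leaving Bard1 each time. The WT p53 count of 2 was 1 with q-values limited to 0.1 and 1 in the upper 50% by fold, leaving Mre11a. It was 0 at a q-value of at most 0.01, 0 within 5 kb of gene ends and 0 within 1 kb of a start. The settings with lower counts use fewer peaks or less of each gene by construction. With the 20 kb window the K17KO p53 count was 3, adding Parp1 (7.69% against 5.94% of all protein-coding genes). The WT p53 count stayed at 2 there (5.13% against 10.8%). The start rule was chosen after the data were seen. No member had a peak in more than 1 list, and no member peak overlapped a peak of another list, in any setting tried. Over all protein-coding genes the share with a peak in more than 1 list was 3.57% with the 5 kb window and ran from 0.543% to 6.85% in the other settings. No paired analysis was possible because the lists carry no replicate numbers. p53 peaks of 6 or 7 fragments limit what could be detected.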
